A study of Mus musculus with 6 samples.

Results

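The expression difference described here is that between 2 arrays of A2.Snail cells, DKK + dox and DKK, taken 12 hours after addition of doxycycline (dox) on day 2.5 of differentiation; the series has 6 arrays in all. All genes with exactly 1 gene symbol for a probe set were compared, which gave 18193 genes, and 14755 of these exceeded the low-signal limit, an intensity of 37.2, on at least 1 of the 6 arrays. A2.Snail cells are mouse ESCs, made from A2lox cells by Cre-mediated insertion of a cassette, in which dox switches on a Snail transgene. Both cultures were differentiated in suspension in serum with DKK, a secreted inhibitor of Wnt signaling. The DKK + dox culture received dox at 250 ng/mL on day 2 and the DKK culture, which carries the same transgene, received none. The other 4 arrays are DKK and DKK + dox at 6 hours (day 2.25) and 24 hours (day 3), and they were used to ask which of the 12 hour differences were also found at those times. There is 1 array per condition and time, so that a difference has no replicate check, no test was made, and only its size is given. Cells without the transgene but with dox were not analysed here, so an effect of dox and an effect of Snail cannot be told apart.

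Snail (Snai1) is a zinc finger repressor that binds E-boxes and is best known for shutting off E-cadherin, claudins and occludin during epithelial-to-mesenchymal transition (EMT). In the embryo this happens at gastrulation, when epiblast cells lose their junctions, pass through the primitive streak and become mesoderm. Wnt signaling normally drives this step, and cells differentiated in DKK are deprived of it, so that the comparison asks what Snail changes in its absence.

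Intensities are the authors' dChip values, and a difference is DKK subtracted from DKK + dox after log2(intensity + 20.6), the added 20.6 being the value below which 25% of all intensities lie. This scale understates the change of dim genes. Array medians ranged from 53.5 to 63.7. On each array 37.5 to 41.3% of probe sets were at or under the limit, which is the pooled 40th percentile. The 8 markers of embryonic stem and epiblast cells were present on both 12 hour arrays at 706 or above, Nanog being the lowest, and summed to 44865 in DKK and 41400 in DKK + dox. Of 15 measured visceral endoderm markers and 8 trophoblast markers, none differed 2-fold at 12 hours; the visceral endoderm sum was 3922 in DKK and 3624 in DKK + dox, and the trophoblast sum 572 and 562. The visceral endoderm sum was mostly Apoe and Rhox5, and the defining genes Ttr (44.5 and 39.5) and Foxa2 (14.1 and 13.4) were near or under the limit. Of 17 parietal endoderm markers 1, Pth1r (47.2 and 171), was higher and 0 were lower, with sums of 5021 and 5664. Their median difference was 0.21 at 12 hours, with 13 above 0 and 4 below. At 24 hours their median was 0.54, and 6 were at least 2-fold higher and 0 lower. Of 11 feeder fibroblast markers 1 was higher and 1 lower at 12 hours, with sums of 1706 and 1705. The Snai1 probe set was under the limit on all 6 arrays (16.6 in DKK and 18.8 in DKK + dox at 12 hours). This probe set is no check of the labels, since its position relative to the transgene was not analysed here. In pooled cells, fewer cells that express a gene and less RNA per cell cannot be told apart.

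At 12 hours, more genes were lower with Snail than were higher. Of the 14755 genes, 332 were at least 2-fold lower in DKK + dox (2.25%) and 187 at least 2-fold higher (1.27%), so that 36% of the 519 genes past 2-fold (3.52% of all) were higher. Counts of list members below are to be read against 2.25% of all genes lower and 1.27% higher. At 4-fold, 22 genes were lower and 11 higher. Most genes were close to 0: 83.8% lay within 0.5 on either side, the median over all genes was 0.03, and the 5th and 95th percentiles were -0.69 and 0.61. Below 0 lay 45.7% of all genes. At 6 hours the numbers were 69 (0.468%) and 40 (0.271%), and at 24 hours 324 (2.2%) and 461 (3.12%), so losses outnumbered gains at 6 and 12 hours and gains outnumbered losses at 24 hours. Just past the threshold were Irgm1 (191 in DKK and 85.2 in DKK + dox) and Alox15 (40.7 and 102), and just short of it Oscar (53.8 and 16.6) and Pcdh15 (11.4 and 43.2).

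**Figure D1:**
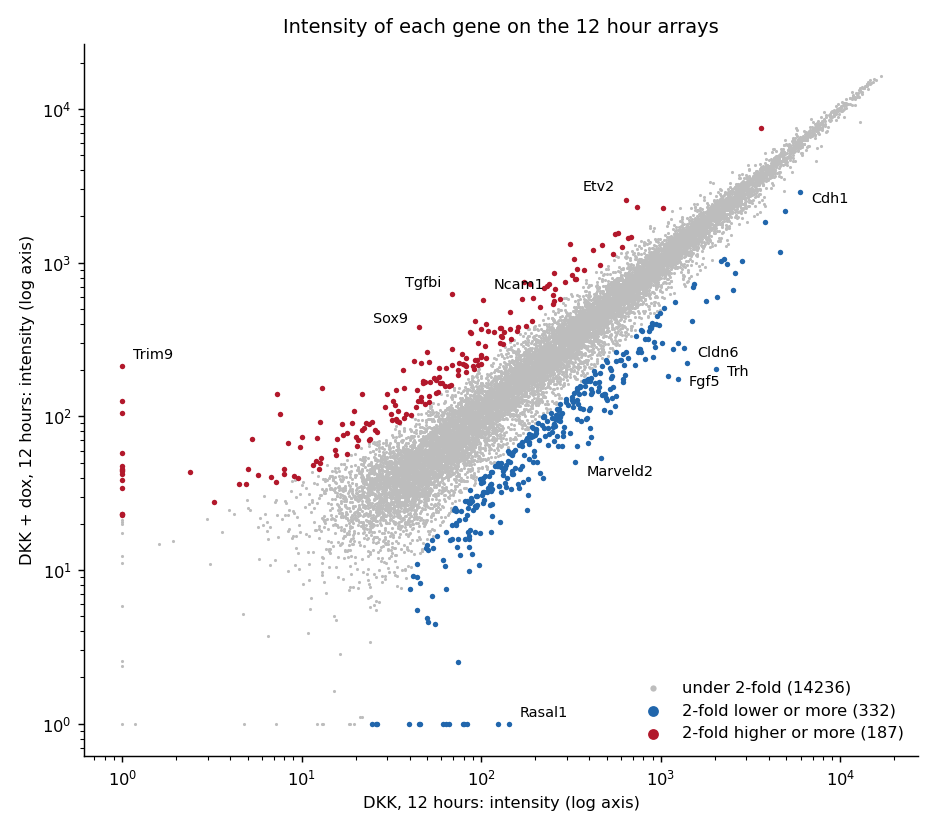
Intensity of each of the 14755 genes on the DKK array (x axis) and the DKK + dox array (y axis) at 12 hours, both on log axes; blue points are the 332 genes at least 2-fold lower and red points the 187 at least 2-fold higher on the log2(intensity + 20.6) scale. Points on the bottom and left edges, such as Rasal1 and Trim9, have a value of 1 on 1 array.

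The counts differed with brightness. With genes split evenly into bright, middle and dim by their mean on the 12 hour arrays, 48 of 4918 bright genes were lower and 28 higher. Of 4918 middle genes 167 were lower and 79 higher, and of 4919 dim genes 117 and 80. The value 1 is the lowest in the table and was held by 2.51 to 3.00% of probe sets on each array. Of the 332 losses 14 had the value 1 in DKK + dox, and of the 187 gains 14 had it in DKK. These genes are set apart below.

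Tight junctions held some of the strongest losses. Of 25 tight junction genes listed, 24 were on the arrays and 21 were measured, that is, above the limit on at least 1 array. Of these 21, 5 were lower and 0 higher, with a median difference of -0.36 against 0.03 over all genes. The claudin Cldn6, a strand-forming protein of embryonic epithelia, read 1393 in DKK and 224 in DKK + dox, a difference of -2.53. Cldn7, another claudin, read 1099 and 183 (-2.46). Occludin (Ocln), a transmembrane protein of tight junctions, read 392 and 67.6 (-2.23), and a further probe set of Ocln differed by -1.83. Marveld2, which seals tricellular corners, read 334 and 50.5 (-2.32), and cingulin (Cgn), which ties the junction to actin, read 306 and 118 (-1.23), although its other probe set differed by 0.44. At 6 hours Cldn6 was already lower by -1.01, Cldn7 by -1.35 and Ocln by -1.15, whereas Marveld2 was at -0.80 and Cgn at -0.55. At 24 hours all 5 were at least 2-fold lower, with differences from -1.35 (Cgn) to -2.78 (Cldn7). In DKK these genes were brighter at 12 than at 6 hours, Cldn7 at 258 and then 1099 and Marveld2 at 90.2 and then 334, while in DKK + dox Marveld2 stood at 43.0 and 50.5.

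Adherens junctions and desmosomes were lower in part. Of 23 genes 5 were lower and 0 higher (median -0.32). E-cadherin (Cdh1), the cadherin of epithelial adherens junctions, read 5957 in DKK and 2868 in DKK + dox, a difference of -1.05, after -0.37 at 6 hours and before -1.02 at 24 hours. It was thus lower by about the threshold and remained among the brighter genes on the array. The plakophilin Pkp2, a desmosomal plaque protein, read 1245 and 301 (-1.98; -2.09 by its other probe set), and Perp, a desmosome membrane protein, read 286 and 79.6 (-1.61). Epcam, an epithelial adhesion molecule, read 3826 and 1840 (-1.05, but -0.37 by its other probe set), and afadin (Afdn), which links nectins to actin, read 958 and 452 (-1.05, and -0.30 by its other probe set). The desmosomal genes Dsp (-0.95), Dsg2 (-0.93) and Dsc2 (-0.87) came close to 2-fold without reaching it. The other 2 probe sets of Dsp did not agree in direction, at -0.52 and 0.59.

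Keratins, which fill the cytoplasm of simple epithelia as pairs, did not move together. Krt18 read 631 in DKK and 186 in DKK + dox (-1.66), whereas Krt8, its usual partner, read 448 and 610 (0.43), and the other 2 Krt8 probe sets were also higher, by 0.35 and 0.51. Krt19 was at -0.98. Of 11 keratins measured 1 was lower and 0 higher.

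Apical polarity genes include the Crumbs and Par complexes, which set up the apical side of an epithelial cell. Of 22 such genes 4 were lower and 0 higher (median -0.10). Mal2, which carries cargo to the apical membrane, read 181 and 24.4 (-2.16). Pard6b, a Par complex scaffold, read 370 and 112 (-1.56; -1.94 by its other probe set), while its paralog Pard6g read 749 and 1146 (0.60). The Crumbs protein Crb3 read 278 and 103 (-1.27), and its other 2 probe sets differed by -1.81 and -1.06. The atypical protein kinase C gene Prkcz read 138 and 48.0 (-1.20), with -0.61 and -0.56 by its other 2 probe sets. Ap1m2, an adaptor for basolateral sorting, stood at -0.76 at 12 hours and at -2.27 at 24 hours.

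Of 13 regulators of the epithelial state 2 were lower and 0 higher (median -0.35). Esrp1, which directs epithelial splicing, read 1011 in DKK and 300 in DKK + dox (-1.69), and the transcription factor Grhl1 read 183 and 39.0 (-1.77). Grhl2, of the same family, was at -0.85 at 12 hours and at -1.54 at 24 hours, but its other 2 probe sets were at 0.35 and 0.59 at 12 hours. Tfap2b was at 0.62. Among 8 epithelial membrane proteases and inhibitors, 4 were lower and 0 higher, with a median of -0.90. These 4 belong to a single cascade: the proteases matriptase (St14, 248 and 78.9, -1.43) and prostasin (Prss8, 85.4 and 14.2, -1.61), and the inhibitors Spint1 (714 and 216, -1.64) and Spint2 (2838 and 1027, -1.45).

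Over the 6 epithelial lists together, 21 of 98 genes (21.4%) were at least 2-fold lower against 2.25% of all genes, and 0 were higher. At 24 hours, on arrays that share no sample with the 12 hour pair, 19 of these 21 were also at least 2-fold lower. The exceptions were Afdn (-0.35) and Prkcz (-0.75). The lists, here and below, were chosen with earlier results of these data known. Their shares and their 24 hour counts are therefore a description and no independent check.

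**Figure D2:**
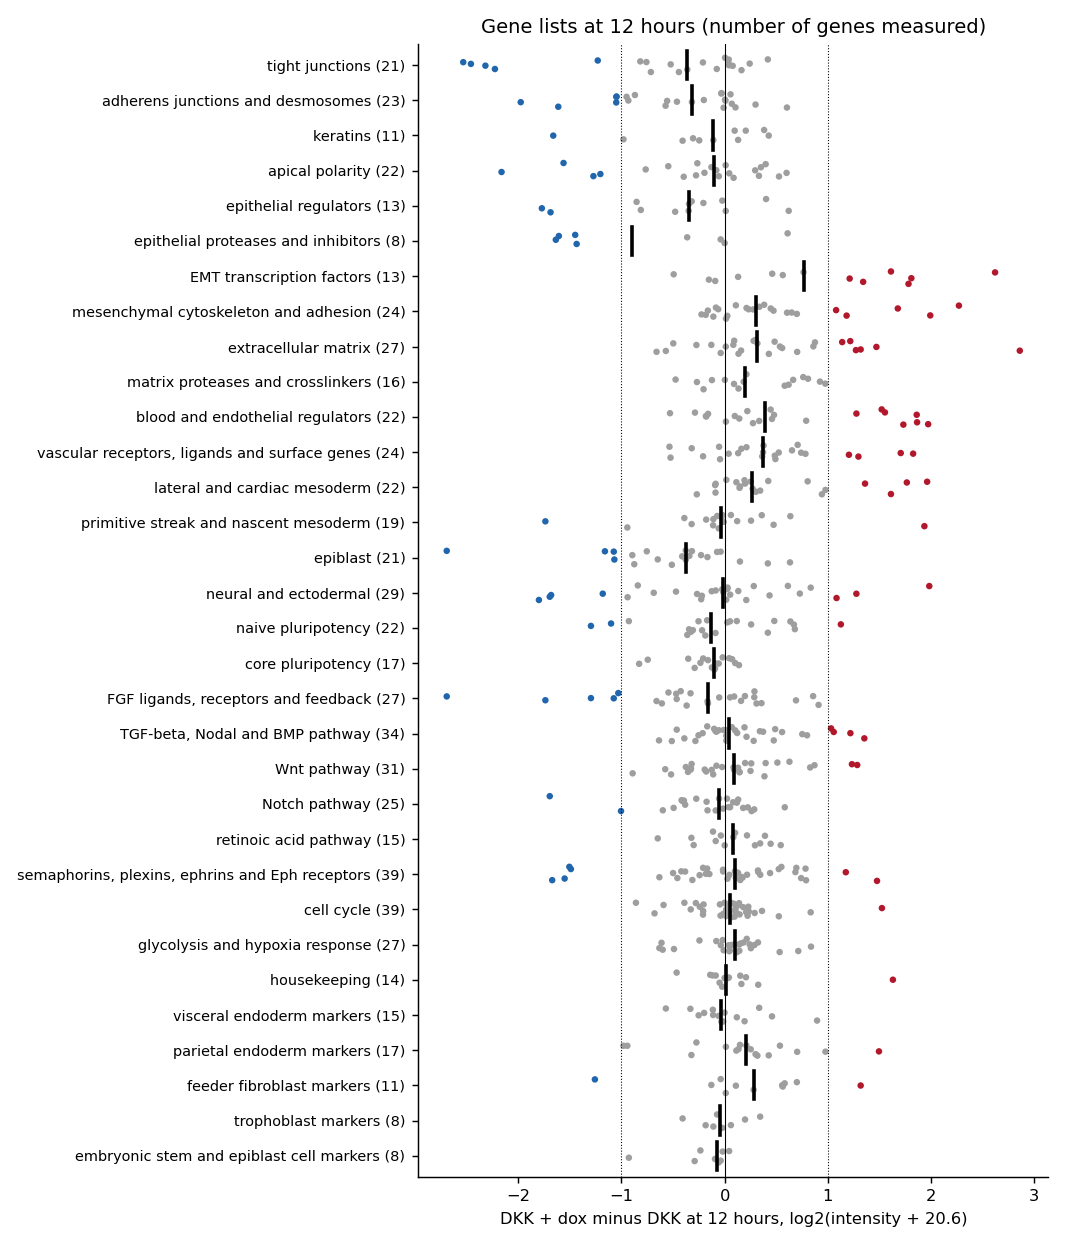
Difference between DKK + dox and DKK at 12 hours on the log2(intensity + 20.6) scale (x axis) for the measured genes of 32 lists; each point is a gene, the black bar is the median of the list, dotted lines mark 2-fold, and blue and red points lie beyond it. The 6 epithelial lists at the top have blue points and no red, and the lists of EMT factors, mesenchymal cytoskeleton, extracellular matrix, blood and endothelial regulators, vascular genes and lateral mesoderm have red points and no blue.

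Promoters of 48.6% of the genes that were lower held the Snail type of E-box, against 22.3% over all genes. The sequence searched was CAGGTG, or CACCTG for the other strand, in RefSeq windows of build GRCm38.p6 that run from 250 bases before to 50 bases after an annotated start, and 11807 of the 14755 genes had a window. Promoters of 6 epithelial genes that were lower are shown, picked out, after their windows were read, among those that hold more than 1 E-box; lower case is the window, 5' to 3' along the gene, and capitals mark each E-box.
Cldn6, chr17:23679115-23679414, plus strand: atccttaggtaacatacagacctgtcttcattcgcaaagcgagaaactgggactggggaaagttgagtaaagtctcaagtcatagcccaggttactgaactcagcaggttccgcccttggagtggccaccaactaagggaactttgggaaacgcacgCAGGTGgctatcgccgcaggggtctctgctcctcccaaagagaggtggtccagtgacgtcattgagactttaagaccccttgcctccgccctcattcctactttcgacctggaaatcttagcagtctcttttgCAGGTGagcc
Cldn7, chr11:69965171-69965470, plus strand: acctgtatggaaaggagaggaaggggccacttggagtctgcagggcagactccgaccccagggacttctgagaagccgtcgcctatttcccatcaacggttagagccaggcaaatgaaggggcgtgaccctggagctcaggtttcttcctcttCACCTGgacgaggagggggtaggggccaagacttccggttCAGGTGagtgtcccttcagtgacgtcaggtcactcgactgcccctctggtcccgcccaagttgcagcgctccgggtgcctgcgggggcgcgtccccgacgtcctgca
Ocln, chr13:100552449-100552748, minus strand: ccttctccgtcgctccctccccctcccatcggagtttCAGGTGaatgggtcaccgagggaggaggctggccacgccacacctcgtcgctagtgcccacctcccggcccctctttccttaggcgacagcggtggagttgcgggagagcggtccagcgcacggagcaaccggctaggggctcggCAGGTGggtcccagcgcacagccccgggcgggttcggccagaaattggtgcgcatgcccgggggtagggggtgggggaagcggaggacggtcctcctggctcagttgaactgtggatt
Crb3, chr17:57061951-57062250, plus strand: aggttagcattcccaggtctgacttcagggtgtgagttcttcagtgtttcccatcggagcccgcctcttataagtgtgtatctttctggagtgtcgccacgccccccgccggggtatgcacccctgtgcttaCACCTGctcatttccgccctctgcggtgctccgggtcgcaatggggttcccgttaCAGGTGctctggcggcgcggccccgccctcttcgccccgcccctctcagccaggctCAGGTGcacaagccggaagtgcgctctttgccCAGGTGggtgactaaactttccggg
Pard6b, chr2:168080754-168081053, plus strand: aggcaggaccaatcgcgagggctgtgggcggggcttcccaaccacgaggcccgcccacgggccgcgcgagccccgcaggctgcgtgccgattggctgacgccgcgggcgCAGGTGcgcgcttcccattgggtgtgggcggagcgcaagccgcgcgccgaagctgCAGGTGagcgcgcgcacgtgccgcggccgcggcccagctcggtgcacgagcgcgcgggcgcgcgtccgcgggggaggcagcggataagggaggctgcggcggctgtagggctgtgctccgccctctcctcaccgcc
Epcam, chr17:87635729-87636028, plus strand: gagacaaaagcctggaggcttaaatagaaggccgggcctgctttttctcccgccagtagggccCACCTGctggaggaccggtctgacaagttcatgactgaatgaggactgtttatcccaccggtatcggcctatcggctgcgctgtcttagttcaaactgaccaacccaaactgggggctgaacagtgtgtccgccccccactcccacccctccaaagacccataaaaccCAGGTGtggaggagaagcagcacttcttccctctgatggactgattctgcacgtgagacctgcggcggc
The Cldn6 window has 2 E-boxes, 93 bases before and 41 bases after the start. In the Cldn7 window they lie 97 and 57 bases before the start, in that of Ocln 213 and 68 bases before, in that of Pard6b 141 and 86 bases before, and in that of Epcam 187 and 19 bases before. The Crb3 window has 4, at 118, 63 and 7 bases before and 26 bases after the start. Cldn7, Ocln and Crb3 have a further window each, which holds 0, 1 and 4, and that of Crb3 overlaps the window shown. Of the 21 epithelial genes that were lower, 14 had a window and 10 of these an E-box.

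By gene, 123 of 253 losses with a window held this E-box, as did 21 of 132 gains (15.9%), against 2633 of 11807 genes in all and 22.6% of genes in the whole promoter table. On the side of the losses the share was 20.9% within 0.5 of 0, 34.4% from -1 to -0.5 and 48.5% from -2 to -1. It was 50% at -2 or below (8 of 16). On the side of the gains it was 21.3% from 0.5 to 1 and 15.9% at 1 or above. By window, the E-box was in 41.1% for losses, 12.1% for gains and 19.3% for all genes. Several windows were held by 24.1% of losses and 19.6% of all genes. E-boxes at 2 or more places were found for 15% of losses, 1.52% of gains and 3.33% of all genes. The motif was spread over the window, in 6.90 to 11.5% of loss windows per 50 bases against 2.94 to 4.09% of all windows. Of other E-boxes, CAGCTG was in 19.0% of losses and 18.4% of all genes, CACGTG in 11.5% and 11%, CAGATG in 14.2% and 14.4%, and CAAGTG in 16.6% and 13.7%. Loss windows had a somewhat higher GC content, with a median of 62% per gene against 59.7% for all genes and 56.7% for gains. With windows split about evenly by GC content into low, middle and high, the shares for losses and for all genes were 25.5% and 18.1% at low GC, 45.1% and 21% at middle GC and 49.6% and 18.8% at high GC. Of the genes lower at both 12 and 24 hours 59.3% had the E-box, of those lower at 12 hours alone 34.3%, and of those lower at 24 hours alone 44.2%. At 6 hours the shares were 28.8% of losses (15 of 52) and 27.3% of gains (9 of 33), so that the directions differed little at that time. A match is a stretch of letters in a window and not a measured binding site.

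**Figure D3:**
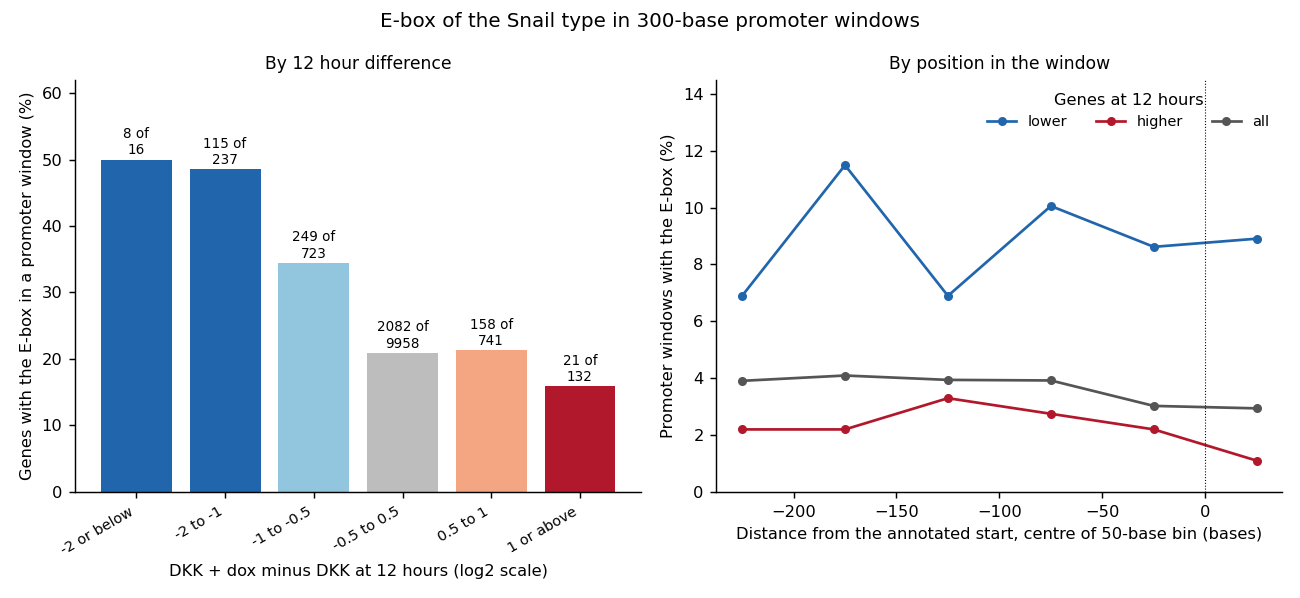
Left, share of genes (y axis, %) with the Snail type of E-box in a 300-base promoter window, by difference at 12 hours (x axis, log2 scale), with the number of genes above each bar; right, share of windows with the motif (y axis, %) in 50-base bins by distance from the annotated start (x axis). Losses, in blue, lie above all genes in each bin of the right panel, and gains, in red, lie below.

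Of 13 EMT transcription factors measured besides Snai1, 6 were higher at 12 hours and 0 lower, against 1.27% and 2.25% of all genes. Their median of 0.76 was the highest of the 32 lists. Zeb2, a zinc finger repressor that shares E-box targets with Snail, read 86.3 in DKK and 354 in DKK + dox (1.81), with 0.14 to 1.28 by its other 3 probe sets. Zeb1, of the same family, read 75.6 and 223 (1.34; 0.49 by its other probe set), and Twist1, a basic helix-loop-helix factor of cranial mesenchyme, read 130 and 327 (1.21). Sox9, a factor of neural crest and cartilage, read 44.8 and 382 (2.62, with 1.60 and 1.98 by its other 2 probe sets), Prrx2, a homeobox gene of limb mesenchyme, 51.1 and 226 (1.78), and Foxc1, a forkhead factor of paraxial mesoderm, 9.99 and 72.9 (1.61, with 0.77 by its other probe set). Snai2 (-0.49), Snai3 (-0.15) and Tcf3 (-0.09) were below 0. At 6 hours none of the 6 had reached 2-fold, Twist1 being furthest at 0.65. At 24 hours all 6 were past it, from 1.74 (Prrx2) to 3.46 (Sox9).

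Mesenchymal adhesion and matrix genes were higher in smaller numbers. Of 24 genes of mesenchymal cytoskeleton and adhesion 5 were higher and 0 lower (median 0.31): the neural cell adhesion molecule Ncam1 (102 and 571, 2.27), cadherin 11 (Cdh11, 42.3 and 230, 1.99, with 0.75 by its other probe set), annexin A2 (Anxa2, 255 and 861, 1.68), Glipr2 (99.5 and 252, 1.18) and Cd248 (15.5 and 55.8, 1.08). The probe sets of Ncam1 did not agree in size, the other 4 ranging from -0.13 to 2.77. The other 2 of Anxa2 were at 0.17 and 1.56, and the other 1 of Glipr2 was at 0.61. Of 27 extracellular matrix genes 6 were higher and 0 lower (median 0.32). Tgfbi, a secreted matrix protein induced by TGF-beta, read 68.7 in DKK and 628 in DKK + dox (2.86), and its other 3 probe sets differed by 1.92 to 2.62. The fibrillin Fbn2 (78.6 and 254, 1.47) and the collagens Col3a1 (23.6 and 89.7, 1.32) and Col5a2 (31.8 and 94.8, 1.14) were among the others. Of 16 matrix proteases and crosslinkers 0 were past 2-fold in either direction, with the gelatinase Mmp2 at 0.98 (382 and 772), the collagen chaperone Serpinh1 at 0.92 and the membrane protease Mmp14 at 0.81. All 3 were past 2-fold at 24 hours, at 1.72, 2.21 and 1.46. Over the 4 mesenchymal lists, 17 of 80 genes (21.3%) were higher against 1.27% of all genes, and all 17 were also higher at 24 hours. With lists chosen after earlier results of these data, both counts are a description. Feeder fibroblast markers, which include Col3a1, had a median of 0.28 at 12 hours. Of the 11, 3 lay below 0, as did 45.7% of all genes, and 8 above, among them Thy1 (0.70), Lox (0.58), Twist2 (0.56) and Col1a1 (0.56). Their sum, 1706 in DKK and 1705 in DKK + dox, includes Cxcl12 at 523 and 207, and their part in the mesenchymal differences was not tested.

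Of 22 regulators of blood and endothelial progenitors 7 were higher at 12 hours and 0 lower (median 0.39), and 5 lay below 0, Ets2 (-0.53) the furthest. Etv2, an ETS factor that opens the endothelial and blood program, read 640 in DKK and 2572 in DKK + dox (1.97), and of the 7 it alone was brighter in DKK + dox at 12 hours than at 24 hours, where it read 1257. The ETS genes Elk3 (186 and 732, 1.87), Ets1 (106 and 401, 1.73) and Fli1 (58.4 and 206, 1.52, with 0.57 by its other probe set) were higher with it, as were Sox18 (46.2 and 222, 1.86), Gata2 (109 and 359, 1.55) and Tal1 (78.9 and 221, 1.28). Other probe sets ranged from 0.92 to 1.81 for Elk3 and from 0.28 to 1.80 for Ets1, and that of Gata2 was at 1.36. Fli1, Ets1 and Gata2 were further apart at 24 hours, at 4.10, 3.55 and 3.43, and Etv2 less so, at 1.64. Before 12 hours, Gata2 (-0.57), Tal1 (-0.52) and Fli1 (0.02) were not higher with dox. In DKK alone Fli1 read 10.6, 58.4 and 20.9 at 6, 12 and 24 hours and Gata2 41.8, 109 and 41.4, so that their DKK values were highest on the 12 hour array.

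Receptors that these cells carry were next. Of 24 vascular genes 4 were higher and 0 lower (median 0.38): Kdr, the VEGF receptor also called Flk1 (99.3 and 371, 1.71), Flt4, a VEGF receptor of lymphatic and early endothelium (104 and 287, 1.30), the Tie2 ligand Angpt1 (5.27 and 71.2, 1.83) and the receptor Calcrl (20.04 and 73.1, 1.20). The other probe set of Flt4 was at 0.69 and that of Angpt1 at 1.17. Of 22 genes of lateral and cardiac mesoderm 4 were higher and 0 lower (median 0.26). Isl1, a homeobox gene of cardiac progenitors, read 92.4 and 420 (1.96), Mef2c, a MADS-box factor of heart muscle, 12.6 and 92.3 (1.77), and Meis2 58.2 and 182 (1.36). The fourth is Foxc1. The other probe set of Isl1 was at 0.79, and those of Mef2c ranged from 0.57 to 1.68 and of Meis2 from 1.55 to 1.59. Pdgfra, the receptor of paraxial mesoderm, was at 0.98, but at 0 by its other probe set, and passed 2-fold at 24 hours (2.09). Over the 3 mesodermal lists, 15 of 68 genes (22.1%) were higher, against 1.27% of all genes, and 0 were lower. All 15 were also higher at 24 hours, when 3.12% of all genes were. As these lists too were chosen with earlier results known, the counts describe them only. Foxc1 counts here and among the EMT factors.

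**Figure D4:**
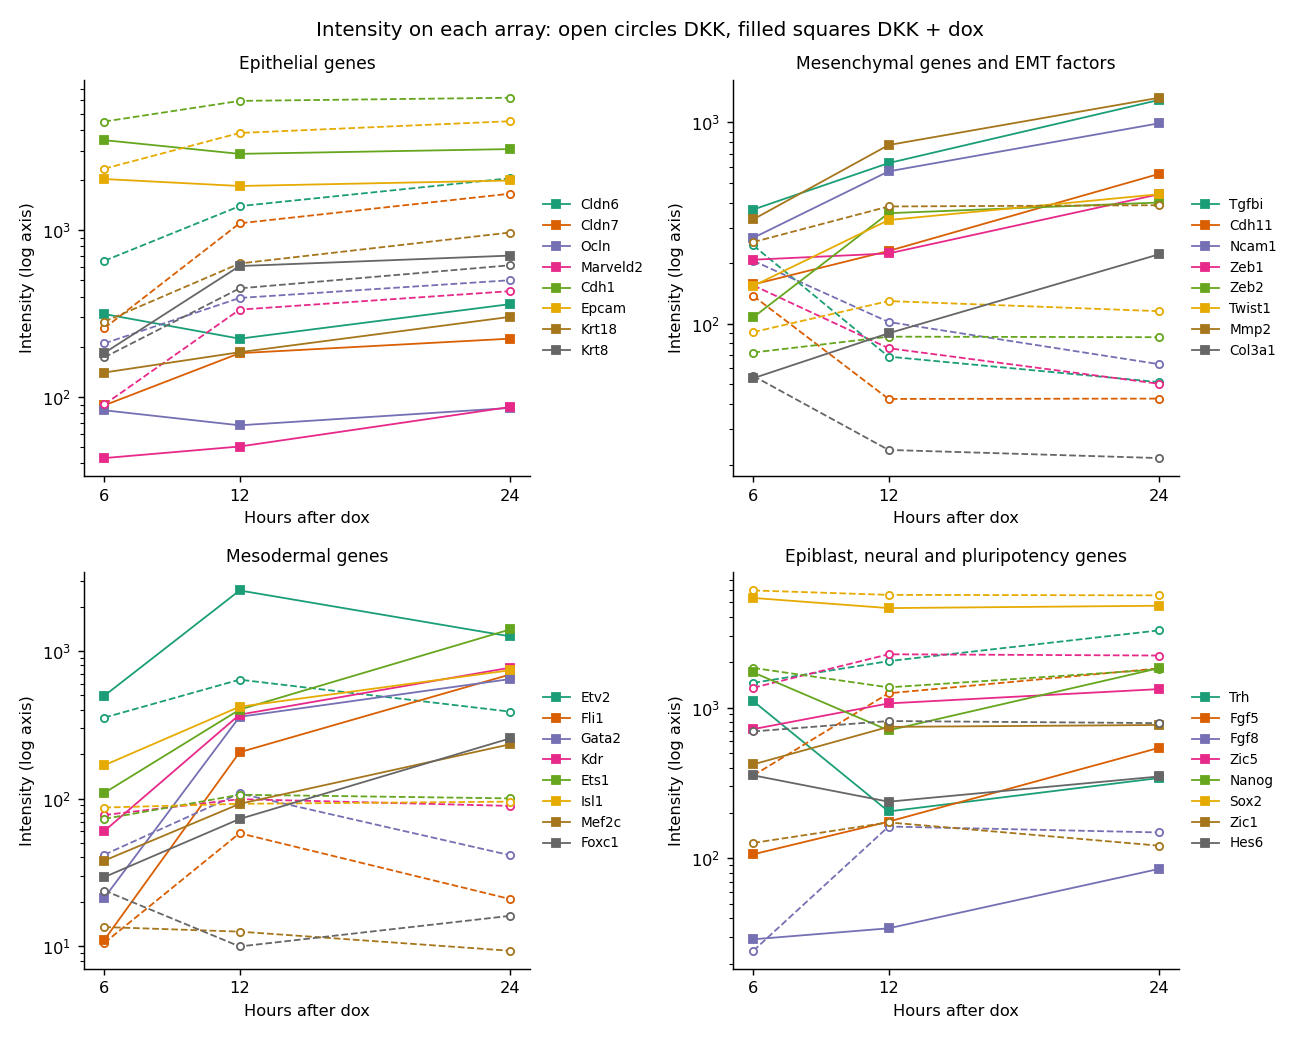
Intensity (y axis, log scale) of 8 genes in each of 4 groups on the 6 arrays by hours after dox (x axis); dashed lines with open circles are DKK and solid lines with filled squares DKK + dox, and each point is 1 array. Cldn6 and Ocln separate by 6 hours, most mesodermal genes separate at 12 hours, and Etv2 in DKK + dox is brightest at 12 hours.

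Genes of the primitive streak, the structure through which mesoderm forms, did not move as a group. Of 19 measured 1 was higher and 1 lower (median -0.03). Goosecoid (Gsc), a homeobox gene of the anterior streak and organizer, read 21.6 and 141 (1.94), and it was already past 2-fold at 6 hours (1.13). Fgf8, a ligand of the streak, read 162 and 34.3 (-1.74). Mixl1 was at 0.64 (64.3 and 111) and Eomes at -0.11 (133 and 122), Eomes being past 2-fold at 24 hours (1.54).

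Fgf5 led the losses among epiblast genes. Fgf5, the FGF ligand by which the epiblast is usually recognised, read 1244 in DKK and 175 in DKK + dox, a difference of -2.69, with -2.49 by its other probe set. It was lower at 6 hours too (354 and 106, -1.56). Of 21 epiblast genes 4 were lower and 0 higher (median -0.38), against 2.25% and 1.27% of all genes. Of the 21, 18 lay below 0, against 45.7% of all genes, while Grb10 (0.63), Sox4 (0.42) and Dnmt3a (0.15) lay above. Lower besides Fgf5 were the kinase Pim2 (4896 and 2179, -1.16), the zinc finger gene Zic5 (2258 and 1066, -1.07) and Fgf15 (785 and 362, -1.07). At 24 hours 1 of the 4 was still past 2-fold, Fgf5, while Zic5 stood at -0.73, Fgf15 at -0.81 and Pim2 at -0.59. FGF ligands recur here: of 27 genes of the FGF pathway 5 were lower and 0 higher, namely Fgf4, Fgf5, Fgf8, Fgf15 and the feedback inhibitor Spry1 (496 and 232, -1.03). Fgf4, a ligand made by undifferentiated ESCs, read 817 and 320 (-1.30, with -1.42 and -0.19 by its other 2 probe sets). Dusp4, a phosphatase induced by ERK signaling, was at 0.91.

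Pluripotency genes mostly stayed within 2-fold of their level in DKK. Of 17 core pluripotency genes 0 were past 2-fold by the probe sets used (median -0.10), and 13 lay below 0. Pou5f1 was at 6764 and 6675, Sox2 at 5599 and 4574 and Lin28a at 6740 and 6948. Gdf3, a TGF-beta family ligand of ESCs, was nearest to the threshold by these probe sets, at 1482 and 825 (-0.83), and it was at -1.05 at 24 hours. Other probe sets went past 2-fold for Rif1 (-0.35, the other 3 from -1.15 to -0.63) and Fut9 (-0.74, the other 2 at -1.07 and -0.59). Of 22 naive pluripotency genes Nr0b1 (328 and 142, -1.10) and Fgf4 were lower. The LIF receptor Lifr (656 and 1457, 1.13, with 0.56 by its other probe set) was higher. Nanog, on the same list, read 1362 and 706 (-0.93) at 12 hours and 1791 and 1827 (0.03) at 24 hours.

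Neural genes went in both directions, and their counts are to be read against 2.25% of all genes lower and 1.27% higher. Of 29 genes 4 were lower: the neurofilament Nefh (389 and 97.0, -1.80), Hes6 (814 and 237, -1.69), the neurogenic factor Neurod1 (397 and 110, -1.68) and Npdc1 (194 and 74.2, -1.18). Another 3 were higher: Zic1 (173 and 745, 1.98), the growth cone protein Gap43 (133 and 352, 1.28) and Irx3 (89.4 and 213, 1.08). Zic1 was past 2-fold at 6 hours as well (126 and 420, 1.58), and it thus differed in direction from Zic5 and from Zic2 (1394 and 750, -0.88) on the same arrays. The other probe set was at -0.72 for Hes6, at -1.42 for Neurod1 and at 1.17 for Zic1. Sox1, an early neural factor, was at -0.94.

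Members of signaling pathways past 2-fold are to be read against 2.25% of all genes lower and 1.27% higher. Of 34 genes of the TGF-beta, Nodal and BMP pathway 4 were higher and 0 lower: the ligand Tgfb2 (17.8 and 77.6, 1.35), the inhibitor Smad6 (81.5 and 217, 1.22), the BMP target Id4 (191 and 420, 1.06) and the decoy receptor Bambi (461 and 964, 1.03). Other probe sets ranged from 0.68 to 1.25 for Tgfb2 and from 0.86 to 0.92 for Id4. Nodal itself was at -0.39. Of 31 Wnt genes 2 were higher, both secreted inhibitors: Dkk1 (34.5 and 109, 1.23) and Sfrp1 (294 and 746, 1.28). Other probe sets were at 0.43 for Dkk1 and from 0.64 to 1.12 for Sfrp1. Dkk1 was the further apart at 24 hours, at 3.57. The receptors Fzd2 (0.83) and Fzd1 (0.87) were higher by less than 2-fold and Fzd5 (-0.89) was lower by less than that. Of 25 Notch genes Hes6 and the fringe gene Mfng (87.0 and 33.0) were lower and 0 were higher, and of 15 retinoic acid genes 0 were past the threshold. Guidance genes were mixed, with 4 of 39 lower and 2 higher. All 4 that were lower are semaphorins, Sema4d (538 and 155, -1.67), Sema6a (91.9 and 17.8, -1.55), Sema3c (137 and 35.0, -1.50) and Sema3e (357 and 114, -1.49), and the 2 that were higher are Sema6d (32.0 and 126, 1.48) and the ephrin Efnb1 (91.7 and 233, 1.17). Other probe sets of these genes were closer to 0 in Sema4d (-0.31), Sema3c (-0.11) and Sema6d (0.33). Those of Sema6a ranged from -1.01 to -0.19 and those of Sema3e from -1.53 to -0.54.

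Proliferation and metabolism were nearly level. Of 39 cell cycle genes cyclin D2 (Ccnd2, 223 and 680, 1.52) was higher, against 1.27% of all genes, and 0 were lower (median 0.06). The other 6 probe sets of Ccnd2 ranged from 0.24 to 1.44. Of 27 glycolysis and hypoxia genes 0 were past 2-fold (median 0.10). Of 14 housekeeping genes 13 were within 2-fold (median 0.02) and Hprt was higher, at 330 and 1065 (1.63), after 0.55 at 6 hours and before 2.72 at 24 hours.

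The largest differences at 12 hours fell into 2 kinds. Of the 15 largest losses 9 were also at least 2-fold lower at 24 hours. Trh, which encodes thyrotropin-releasing hormone, led them with 2034 in DKK and 204 in DKK + dox (-3.19), and it was at -3.18 at 24 hours but at -0.40 at 6 hours. The fatty acid transporter Slc27a2 (1349 and 278, -2.19), the trafficking gene Tom1l1 (408 and 73.4, -2.19, but -0.14 by its other probe set), Mal2, Fgf5, Cldn6, Cldn7, Marveld2 and Ocln make up the rest of the 9. Rprm, a cell cycle arrest gene, was at -2.70 (463 and 53.8) and at -0.96 at 24 hours. The other 5, Rasal1 (-2.92), Dmrt3 (-2.74), Gpr84 (-2.27), Adam28 (-2.23) and Abca13 (-2.21), had the value 1 in DKK + dox at 12 hours, and none was 2-fold lower at 24 hours.

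Of the 15 largest gains 11 were also at least 2-fold higher at 24 hours. They are Tgfbi, Sox9, Ncam1, Cdh11, Etv2, Zic1 and Isl1, the adhesion receptor Adgrf5 (12.95 and 153, 2.37), the homeobox gene Pknox2 (7.59 and 104, 2.14, with 0.44 by its other probe set), Inka1 (49.6 and 264, 2.02) and Igfbp4, which binds insulin-like growth factors (312 and 1316, 2.01). The other 4 were Trim9 (3.44), 5930403N24Rik (2.76), Sprr2k (2.54) and Capn11 (2.53). Trim9 read 1 in DKK at 12 hours and between 214 and 561 on each of the other 5 arrays, and its other probe set differed by 0.03. 5930403N24Rik and Sprr2k also read 1 in DKK at 12 hours, and Capn11 read 7.30.

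Across all genes past 2-fold, the 24 hour pair held many of the 12 hour differences. Of the 332 losses, 308 (92.8%) were lower at 24 hours, as were 47.7% of all genes. At least 2-fold lower were 187 (56.3%), against 2.2% of all genes, whereas 4 were at least 2-fold higher. Of the 187 gains, 142 (75.9%) were higher at 24 hours, as were 52.3% of all genes. At least 2-fold higher were 115 (61.5%), against 3.12% of all genes, and 10 were at least 2-fold lower. The median difference of the losses was -0.44 at 6 hours, -1.28 at 12 hours and -1.08 at 24 hours, and that of the gains 0.22, 1.28 and 1.52. Since 12 hour values chose the genes, the medians at that time are a description. Losses were smaller in size at 24 than at 12 hours for 245 of 332 genes (73.8%) and gains for 83 of 187 (44.4%).

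Counts at 24 hours were also taken by signal level. With both 12 hour arrays above the limit, 222 of 227 losses were lower at 24 hours and 146 (64.3%) at least 2-fold, and of 113 gains 98 were higher and 87 (77.0%) at least 2-fold. Of the 14 losses with a value of 1, 1 was 2-fold lower at 24 hours, and of the 14 gains 0 were 2-fold higher. Within the 12 hour arrays, other probe sets of the same genes give a technical comparison. Of 219 further probe sets of the genes that were lower, 188 (85.8%) had the same sign and 82 (37.4%) were past 2-fold, with a median of -0.70. Below 0 lay 45.7% of all genes. For the genes that were higher, 127 of 140 (90.7%) had the same sign and 57 (40.7%) were past 2-fold, with a median of 0.82. Other probe sets are given in the text for some of the genes only.

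**Figure D5:**
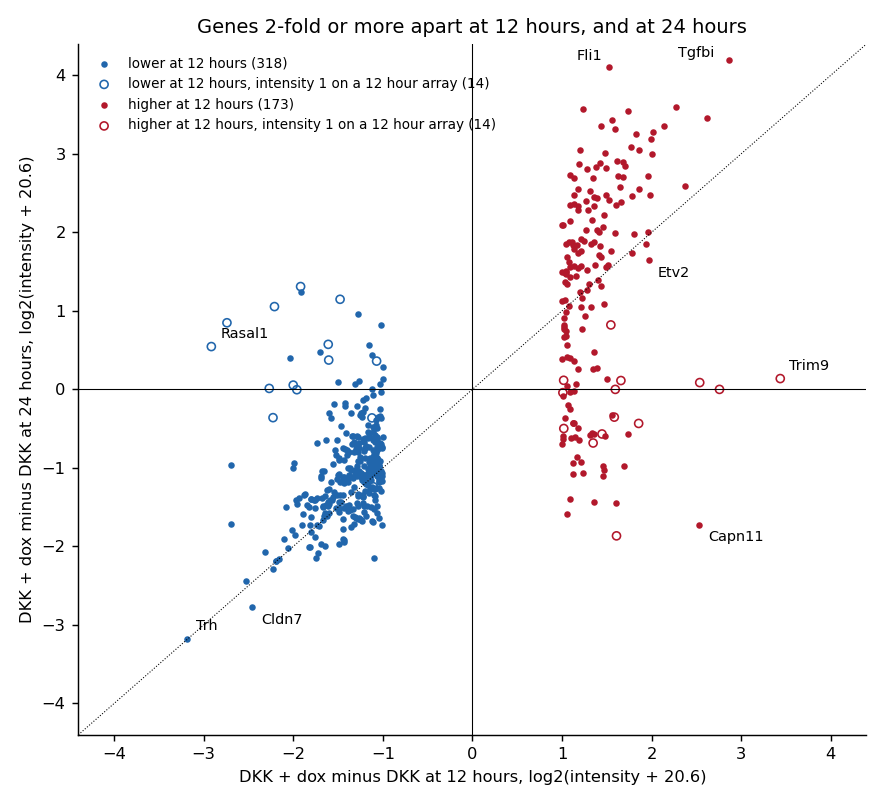
Difference between DKK + dox and DKK on the log2(intensity + 20.6) scale at 12 hours (x axis) and at 24 hours (y axis) for the 519 genes at least 2-fold apart at 12 hours; open circles are the genes with a value of 1 on a 12 hour array, and the dotted line marks equal differences. Filled blue points lie mostly below 0, many of the filled red points lie above the dotted line, and the open circles lie near or across 0.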

How the data were processed

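RNA of A2.Snail cells was hybridised by the authors to 6 Affymetrix MOE430_2.0 arrays, DKK and DKK + dox at 6, 12 and 24 hours, 1 array each, and was normalized and modeled with dChip, its version not given in the sources used here. In the deposited table, intensity is on a linear scale and never below 1. Array labels gave time, DKK and dox, while the sample titles call the DKK arrays untreated. Of 45037 probe sets 34945 carried 1 gene symbol, 932 several and 9160 none; 34741 of the former matched RefSeq (GRCm38.p6) by Entrez ID, and 0 symbols changed. A gene took the probe set brightest on average, as log2(intensity + 20.6), the pooled 25th percentile, and 3438 of 18193 genes at or under 37.2, the pooled 40th percentile, on all 6 arrays were left out.

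A gene counted at a 2-fold difference (1 on the log2 scale). The 12 hour difference rests on 1 array per group and so leaves no residual degrees of freedom; no test was made, and the number of arrays limits the precision; probe sets of the same gene differed by an SD of 0.29 at 12 hours over 6706 genes. The 32 gene lists hold 754 memberships, of which 717 were on the arrays and 664 were measured. The members and lists were chosen with earlier results of these data known. Genes named are Snai1, Cdh1, Hprt, the 15 largest losses and gains, up to 6 members of each list with the largest differences, and the 8 most opposed at 24 hours and the 8 losses and 8 gains most particular to 12 hours. Named outside this rule, after their values were seen, are Dsg2, Dsc2, Tal1, Irx3, Sox1, Pou5f1, Snai2, Snai3, Tcf3, Grb10, Sox4, Dnmt3a, Ets2, the genes on either side of the threshold and the cell type markers Ttr, Foxa2 and Rhox5. Alternatives changed the offset, filter, normalization, probe set, fold threshold and E-box. The counting was tested on simulated data. Python 3.11.15, numpy 2.4.6, pandas 2.3.3 and matplotlib 3.10.9 were used. The miRNA arrays of the study were not analysed here.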

Additional observations from a re-analysis of the deposited data

Results flagged for a closer look

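Named genes at least 2-fold apart in one direction at 12 hours and at least 2-fold apart in the other direction at 6 or 24 hours were set aside. Each is a difference of 2 arrays, and the difference between times was not tested. Some were lower with Snail at 12 hours and higher at 24 hours: Abca13, a lipid transporter, at -2.21 and then 1.05, the myosin Myo1f at -1.91 and then 1.24, and Teddm2 at -1.92 and then 1.31. The chemokine gene Ccl11 was at 1.03 at 6 hours and at -1.96 at 12 hours. Abca13, Teddm2 and Ccl11 had the value 1 in DKK + dox at 12 hours, and Myo1f read 10.9 there against 97.6 in DKK.

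The apolipoprotein Apod was higher at 12 hours (1.61) and lower at 24 hours (-1.44), as were the calpain Capn11 (2.53 and -1.73), the sulfotransferase Chst13 (1.09 and -1.40), the cytochrome Cyp2d10 (1.36 and -1.43) and Tmem25 (1.61 and -1.87). Tmem25 read 1 in DKK at 12 hours and 1 in DKK + dox at 24 hours. Some were lower at 6 hours, higher at 12 hours and lower at 24 hours. The kinase Mapk15 was at -2.99, 1.47 and -1.03 at these times, with a value of 1 in DKK + dox at 6 hours, the phosphodiesterase Pde3a at -1.93, 1.05 and -1.58, and the cytokine Clcf1 at -1.04, 1.13 and -1.07. The other 2 probe sets of Clcf1 differed by -0.31 and 0.35 at 12 hours, the other 2 of Myo1f by -0.39 and 0.37, and that of Apod by -0.09. Gkn2 was at -1.78 at 6 hours, at 1.46 at 12 hours and at -0.97 at 24 hours. None of these genes is a member of the epithelial, mesenchymal or mesodermal lists.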

How the results depend on the processing

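No paired analysis was possible because the 12 hour difference rests on 1 array per group; a model of a dox difference shared by the 3 times, which would not test the 12 hour difference, was not run. Losses outnumbered gains at 12 hours in each of the 12 alternatives run for these counts, with 33.2 to 45.0% of the genes past the threshold higher, against 36%, and 0 of the named differences past 2-fold changed sign. Of the 32 list medians 5, within 0.11 of 0, changed sign. The number of genes depended on the offset and the fold. An offset of 5 gave 529 lower and 369 higher, 181 of the latter also at 24 hours, and an offset of 50 gave 188 and 96, with 114 of the losses also at 24 hours. At 1.5-fold 1000 were lower and 819 higher (541 and 438 also at 24 hours), and at 3-fold 82 and 42 (32 and 31). The mean of all probe sets of a gene gave 220 and 121, with 75 gains also at 24 hours; 211 of these losses and 118 of these gains were among those of the report. Requiring both 12 hour arrays above the limit left 113 gains. The median of the 8 epithelial proteases and inhibitors was -0.41 without a filter, -1.45 at the 60th percentile, and -1.43 for the mean of probe sets, for plain probe sets and without genes listed at 1, which was chosen after seeing the data. That of adherens junctions and desmosomes was -0.71 at the 60th percentile. Any E-box (CANNTG) was in 73.6% of loss windows and 59.3% of gain windows. Of the other results, 32 counts and shares, 314 list medians and 1784 gene differences moved by less than the spread set for them, and 187 gene differences moved by more. Up to 41.3% of probe sets were at or under the limit on an array. This share follows from setting the limit at the pooled 40th percentile and does not measure sensitivity. How far low signal limits the dim genes was not tested.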

Other observations

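Genes in the following groups were picked out after their values were seen, so their counts describe these 2 arrays and support nothing else. The share over all genes was 2.25% lower and 1.27% higher. Of 24 genes of antigen presentation and the interferon response 7 were at least 2-fold lower with Snail at 12 hours and 0 higher, with a median difference of -0.43. Of the 24, 17 lay below 0, against 45.7% of all genes. The class I histocompatibility genes H2-K1 (922 in DKK and 306 in DKK + dox, -1.53) and H2-D1 (593 and 232, -1.28) led with Bst2, which tethers viruses to the cell surface (532 and 183, -1.44). These 3 were as far apart at 24 hours, at -1.51, -1.34 and -1.52. The transcription factor Irf1 (989 and 473, -1.03) was at -0.34 at 24 hours. H2-K1 and H2-D1 are closely related in sequence, and their probe sets may share signal. B2m, the partner chain of class I molecules, was at 0.33, Ifnar1 at 0.54 and Ifngr1 at 0.49.

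Genes that organise the apical membrane and its microtubules were lower in 8 of 17 cases, against 2.25% of all genes. Of the 17, 0 were higher (median -0.38). Ezrin (Ezr), which links apical membrane to actin, read 2044 and 600 (-1.73), and podocalyxin (Podxl), an apical sialomucin, 496 and 133 (-1.75). Plekha7 (275 and 92.8, -1.38) and Camsap3 (453 and 167, -1.34), which anchor microtubule minus ends at adherens junctions, were lower with them. On the basal side the laminin receptor subunit Itga6 (2344 and 986, -1.23) and the laminin chain Lama5 (189 and 75.6, -1.12) were lower.

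Of 9 genes of ErbB receptors and adaptors 2 were lower and 0 higher, with a median of 0.21: the receptor Erbb3 (314 and 78.4, -1.76) and the adaptor Grb7 (613 and 168, -1.75) were lower, and the partner receptor Erbb2 was at 0.69. Among bright genes of ESCs, the arginine transporter Slc7a3 read 4625 and 1173 (-1.96) and Eras, a Ras-like gene of ESCs, 1500 and 415 (-1.80). Among gains outside the lists were the imprinted genes Igf2 (214 and 516, 1.19) and Peg3 (581 and 1557, 1.39), the Hippo pathway scaffold Amot (742 and 2296, 1.60), Ebf1 (238 and 732, 1.54), Eya1 (87.9 and 352, 1.78) and the growth hormone receptor Ghr (168 and 578, 1.66). Each of these 6 gains was at least 2-fold higher at 24 hours, from 1.76 (Ebf1) to 2.87 (Igf2).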
